A study of Mus musculus with 4 samples.

Results

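The zinc finger genes described here are the 52 of 4878 listed genes whose symbol begins with Zfp followed by a digit, all of them. Ribosome footprints, the RNA fragments that ribosomes protect from RNase, were sequenced from mouse embryonic fibroblasts at passages 5 to 8. The cells had received by lipid transfection either an siRNA labelled Si-Negative control (2 libraries) or one labelled Si-eIF1A (X+18) against the initiation factor eIF1A (2 libraries). The label does not say what X+18 stands for, and no other treatment, genotype or embryo age is given. Reads were given for the 5' untranslated region (here called the leader) and for the coding sequence. The comparison asks how footprints on these mRNAs, and their split between leader and coding sequence, differ when eIF1A is lowered.

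Zinc finger proteins fold short loops around a zinc ion. In the C2H2 type, the most frequent in mammals, tandem fingers usually read DNA, and many such proteins carry a KRAB box that recruits the corepressor Trim28 to silence transposons and genes. The CCCH type binds RNA. eIF1A holds the small ribosomal subunit in a scanning state as it moves along the leader towards a start codon. The mouse symbol Zfp marks a naming scheme and not a shared function, so the set also holds RNA-binding and ribosome-associated proteins.

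Depth over the listed genes was 617663 reads (control 1), 547916 (control 2), 458191 (knockdown 1) and 280649 (knockdown 2). Knockdown replicate 2 was the shallowest library and had the highest share of leader reads over all listed genes, 32.4% against 19.95% in knockdown replicate 1 and 11.6% and 13.7% in the controls. The part of depth in leader shares was not tested. Of 11 fibroblast markers, 4 were listed (Col5a1, Vim, S100a4 and Fn1), with summed coding levels of 4824 and 6876 normalized reads in the controls and 3690 and 3173 in the knockdown libraries. None of the markers of endothelial, epithelial, muscle, blood or pluripotent cells was among the listed genes. The genes for eIF1A were not analysed here, so the knockdown was not checked in these libraries. The labels do not state whether the 2 libraries of a group are separate cultures; p-values then cover only the spread between libraries, which may be technical. Footprints reflect both mRNA abundance and translation, and fewer cells of a type and less RNA per cell cannot be told apart.

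The typical Zfp gene carried fewer coding footprints than the typical listed gene and a similar number of leader footprints. Over both controls a member had a median of 48 coding reads, against 93 for all listed genes, but 13 leader reads against 11. The leader share, meaning leader reads among leader plus coding reads, therefore lay high. It was 20.9% and 26.2% over the summed reads of all 52 members in control replicates 1 and 2. Zfp664 alone supplied 19.4% of the members' leader reads in the controls, and without it these shares were 17.5% and 22.5%. The share of a gene also depends on the lengths of its leader and coding sequence, which were not used here.

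The typical member stood above the typical gene in every library. The median leader share of single members in the controls was 18.1% (quartiles 7.51% and 42.2%), against 8.57% (2.92% and 25.4%) for the 4599 genes with at least 20 reads in each group, among which all 52 members were counted. By library the members' medians were 16.8% and 20.9% in the controls and 26.1% and 40.7% in the knockdown libraries. The corresponding medians of all genes were 7.41%, 9.52%, 14.5% and 26.9%. Of the 52 members, 35 lay above the median of all genes, 20 above its upper quartile, 9 above its 90th percentile of 47.6%, and 3 below its lower quartile. Genes are not replicates, so these distributions are given as a description without a test. Other C2H2 families (Zbtb, Klf, Sp, Zfhx, Gli and the like) had a median of 7.14% over 26 genes in the controls, and 20 genes of the KRAB corepressor machinery had 5.29%.

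**Figure D1:**
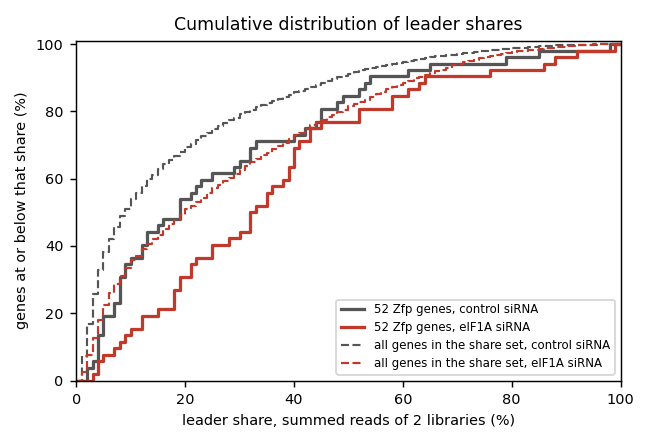
Cumulative distribution of the leader share (x axis, percent of reads; y axis, percent of genes at or below that share) for the 52 Zfp genes (solid) and all 4599 genes (dashed) in control siRNA (grey) and eIF1A siRNA (red) libraries. The solid lines lie to the right of the dashed ones over the middle of the range, with medians of 18.1% against 8.57% in the controls and 32.2% against 19.5% in the knockdown libraries.

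At the top of the range, footprints lay almost wholly on the leader. Zfp664 (chromosome 5, 124862705 to 124888630, GRCm38) had 105 and 105 leader reads in the controls and 99 and 95 in the knockdown libraries, but only 2, 3, 2 and 1 coding reads. Its leader share was 97.7% in the controls (95% Wilson interval 94.7% to 99.0%) and 98.5% (95.6% to 99.5%) in the knockdown. Wilson intervals are given on the summed reads of a group and cover counting error only. Zfp664 was thus the member with the most leader reads in each library and among those with the fewest coding reads. With so few coding reads the share can hardly move, and the normalized leader level was 75.2 and 90.8 in the controls and 100.7 and 152 in the knockdown (log2 0.57, limma adjusted p = 0.287).

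Zfp821 and Zfp251 followed among members with at least 50 control reads. Zfp821 had 17 and 26 leader reads and 7 and 1 coding reads in the controls, a share of 84.3% (72.0% to 91.8%), and 11 and 13 leader reads against 3 and 1 coding reads in the knockdown, 85.7% (68.5% to 94.3%). Zfp251, whose human counterpart carries a KRAB box, had 19 and 19 leader reads against 14 and 11 coding reads in the controls (60.3%, 48.0% to 71.5%). In the knockdown it had 28 and 16 leader reads against 5 and 1 coding reads (88.0%, 76.2% to 94.4%). Both knockdown libraries of Zfp251 lay above both controls, while those of Zfp821 overlapped them. Zfp53 (26 of 50 reads), Zfp948 (48.6%), Zfp46 (47.4%), Zfp367 (44.9%) and Zfp266 (43.4%) came next by control leader share.

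At the other end, some members had almost no leader footprint. In 6 members, Zfp277, Zfp385a, Zfp512, Zfp598, Zfp7 and Zfp865, the leader stood at 1 read, the lowest value of the table, in all 4 libraries. This was 11.5% of the members and 17.6% of all genes, and since a value of 1 read may stand for none, these leaders have no measured level. Zfp598, a ubiquitin ligase that recognises collided ribosomes, had 72 and 64 coding reads in the controls and 49 and 35 in the knockdown beside that single leader read. On the normalized scale its coding level was 51.6 and 55.3 in the controls and 49.8 and 55.9 in the knockdown (log2 change -0.02 ± 0.31 SE, limma adjusted p = 0.976). Zfp280d had the next lowest control share, 1.72%, with 1 leader read in each control against 51 and 63 coding reads.

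**Figure D2:**
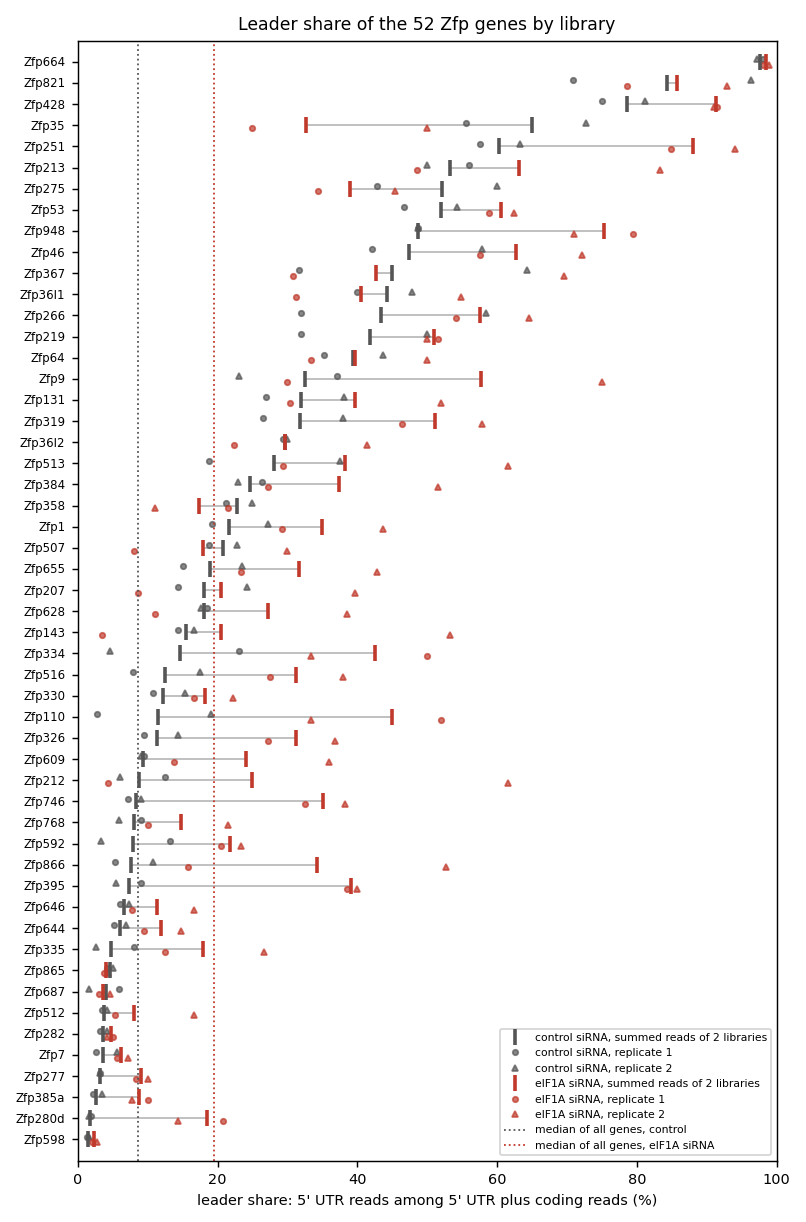
Leader share (x axis, percent of leader plus coding reads) of each of the 52 Zfp genes (y axis, ordered by control share), with small symbols for the 4 libraries, vertical ticks for the summed reads of each group and dotted lines for the medians of all genes. Zfp664 sits at 97.7% and Zfp598 at 1.45% in the controls, most red ticks lie to the right of the grey ones, and Zfp35 moves from 65.0% to 32.6%.

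The first transcribed bases of these genes were searched for an upstream start codon. RefSeq (GRCm38.p6) gave 56 transcript starts for 42 of the 52 members. The letters ATG, searched on the sense strand only, lay in the first 50 transcribed bases of 14 of these 56 starts, against 29.3% of 4955 starts of the listed genes and 44.3% of all 32851 starts. By gene, 13 of the 42 members held one at any of their starts, against 34.2% of 3831 listed genes. The sites of 3 members with a high leader share and of 1 with a low share are shown with ATG in capitals, as examples of what a scanning ribosome meets early in these leaders. Whether they are used as starts was not measured. Sites also lay in Zfp385a, Zfp277, Zfp282 and Zfp335 (control shares 2.67% to 4.76%). Further sites lay in Zfp212, Zfp143, Zfp207 and Zfp513 (8.77% to 28.1%) and in Zfp367 (44.9%). Zfp53 lies at chr17:21489015-21489027, Zfp821 at chr8:109706036-109706048, Zfp46 at chr4:136286087-136286099 and Zfp280d at chr9:72274917-72274929, all on the plus strand.
Zfp53: actgagATGcaat
Zfp821: gggaggATGggcg
Zfp46: ccggagATGgcag
Zfp280d: tccgcgATGggag
Zfp821 and Zfp46 also have annotated starts without an ATG in this window, as do Zfp664 and Zfp428 at every listed start. The GC content of the 300 bases around the starts, 250 before and 50 after, had a median of 62.2% for members and 62.0% for listed genes.

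The leader share was higher in the knockdown for most members, as it was for most genes. Over summed reads it was higher in 44 of 52 members and in 84.3% of all genes, with a median of 32.2% in the members and 19.5% in all genes. The median change was 8.90 percentage points in the members and 6.47 in all genes. In 26 members the shares of both knockdown libraries exceeded those of both controls, where the same held for 56.2% of all genes, and in 1 member, Zfp35, they were below, where it held for 3.04%. In 4 of the 26 the leader stood at 1 read throughout, so that only the coding reads differed. Among genes with a leader above that floor in any library, 22 of 46 members and 59.1% of all genes had both knockdown libraries above. Without knockdown replicate 2 the median change was 2.70 points in members and 2.42 in all genes, and without knockdown replicate 1 it was 18.8 and 13.7. The rule of 20 reads in each group was applied anew, which left 41 and 27 members. These medians therefore cover different sets of genes.

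No member passed the test of the leader-to-coding ratio, which does not show that their ratios were unchanged. By limma on the log2 ratio, 0 of 16 members were called, against 19.5% of the 1907 genes tested (19.4% higher, 0.0524% lower). These 16 had both regions above a mean of 10 normalized reads. At an unadjusted p under 0.05 limma gave 3 of the 16 members and 706 of the 1907 genes. The quasi-likelihood interaction test of edgeR called 0 members, where 341 genes were higher and 1 lower. The members' median log2 change of the ratio was 0.79 and that of all genes 1.23. Both knockdown libraries had a higher ratio than both controls in 6 of the 16 (63.9% of genes tested) and a lower one in none (1.52%). The highest values were those of Zfp516, an activator of brown fat genes (1.72 ± 0.78 SE, limma adjusted p = 0.0949), Zfp948 (1.61 ± 0.80, 0.123) and Zfp326, a subunit of the DBIRD complex that couples transcript elongation to splicing (1.59 ± 0.78, 0.120). Without knockdown replicate 1 limma called 5 of the 16, namely Zfp207, Zfp213, Zfp326, Zfp384 and Zfp516, all upwards, where it called 1170 of 1907 genes higher and 5 lower.

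Of the members whose share moved furthest, most were below the filter of the ratio test. The 6 largest gains in leader share over summed reads were those of Zfp110 (from 11.5% to 45.0%), Zfp395 (7.33% to 39.1%), Zfp334 (14.6% to 42.6%), Zfp251 (60.3% to 88.0%), Zfp746 (8.33% to 35.1%) and Zfp948 (48.6% to 75.3%), and their groups did not overlap. Zfp110, a partner of the p75 neurotrophin receptor, had 1 and 8 leader reads against 35 and 34 coding reads in the controls, and 13 and 5 against 12 and 10 in the knockdown. The Wilson intervals of Zfp110, 6.19% to 20.5% and 30.7% to 60.2%, did not overlap. Without the filter on low values, limma called the ratio of 4 members, Zfp110, Zfp251, Zfp280d and Zfp395, of all 52, where it called 617 of 4878 genes higher and 12 lower.

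Of the 6 members with the most negative difference in leader share, Zfp35 stood first. It went from 65.0% (43.3% to 81.9%) to 32.6% (20.9% to 47.0%), with 5 and 8 leader reads in the controls and 8 and 7 in the knockdown. Its coding reads were 4 and 3 in the controls and 24 and 7 in the knockdown. Zfp275 (52.2% to 38.9%), Zfp358 (22.8% to 17.4%), Zfp36l1 (44.2% to 40.5%), Zfp507 (20.7% to 17.9%) and Zfp367 (44.9% to 42.7%) followed, and in these 5 the libraries overlapped between the groups.

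On leaders alone, limma called 7 higher and 0 lower of the 21 members with a mean leader level of at least 10 normalized reads. Of 2101 genes tested, 44.0% were called higher and 2.81% lower (46.8% in all). At an unadjusted p under 0.05, limma gave 8 members higher and 0 lower, where 1156 genes passed in either direction. With edgeR and DESeq2, 5 members each were higher and 0 lower, where 722 and 727 genes were higher and 21 and 20 lower. The median log2 change by limma was 0.88 in the 21 members and 1.09 in all genes tested. The filter used the mean of all 4 libraries. Among the called members, Zfp319, Zfp326, Zfp36l1, Zfp428 and Zfp655 had control means under 10, so they entered the test through the knockdown libraries. With quantile normalization, which gives every library the same distribution of values, the members' median turned to -0.19, and the split became 1 higher (Zfp428) and 3 lower (Zfp207, Zfp266 and Zfp821). Under that scaling the median of all genes was 0.05, with 388 of 2101 called higher and 385 lower. The knockdown libraries were both higher than the controls in 15 of the 21 (67.4% of genes tested) and both lower in none (7.19%). Most calls of members and of all genes were lost without control replicate 1, and likewise without control replicate 2. Without control replicate 1 the median log2 change was 0.68 in members and 0.95 in all genes. Without control replicate 2 it was 1.19 and 1.21. It was 1.06 and 1.42 without knockdown replicate 1, and 0.78 and 0.76 without knockdown replicate 2. Zfp207 had a log2 change of -1.27 without knockdown replicate 2, against -0.24 with all 4 libraries.

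Zfp428 had the largest leader rise among the 21 members that passed the filter. Its leader level was 6.45 and 11.2 normalized reads in the controls and 54.9 and 65.4 in the knockdown, so the groups lay far apart. The mean went from 8.84 ± 3.39 to 60.2 ± 7.44 (SD, n = 2), which is 2.67 ± 0.53 on the log2 scale (SE; limma adjusted p = 7.58e-06). Its coding reads were 3 and 3 in the controls and 5 and 4 in the knockdown, too few for the coding test. The leader share was 78.6% (60.5% to 89.8%) in the controls and 91.3% (84.4% to 95.4%) in the knockdown. The call held in 12 of 13 alternatives and was lost without control replicate 1 (adjusted p = 0.0522).

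Zfp655, Zfp326 and Zfp319 had the next largest leader rises among the called members. All 3 calls were lost with quantile normalization and without either control replicate. Of 12 alternatives, the call of Zfp655 was lost in 4 and those of Zfp326 and Zfp319 in 3 each. The control leaders held only 3 and 4 reads for Zfp655, 5 and 5 for Zfp326, and 9 and 11 for Zfp319. Zfp655 had 2.15 and 3.46 normalized leader reads in the controls and 11.2 and 23.9 in the knockdown, or 2.22 ± 0.72 on the log2 scale (SE; limma adjusted p = 0.00758). Zfp326 had 3.58 and 4.32 against 15.3 and 22.3 (1.98 ± 0.66, limma adjusted p = 0.00956). The groups did not overlap for either gene, and the second knockdown library was the higher one in both. Zfp319 had 6.45 and 9.51 against 26.4 and 35.1 (1.83 ± 0.56, limma adjusted p = 0.00418). The span of Zfp319 overlaps Usb1 and Tepp in RefSeq, and the strand setting of the counting is unknown here, so its reads may include theirs. The same limit holds for all 6 members that overlap a protein-coding gene, among them Zfp687 (Pi4kb) and Zfp219 (Arhgef40 and Tmem253).

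Zfp948 rose on the leader while its coding level did not pass. It had 12.9 and 15.6 normalized leader reads in the controls and 31.5 and 43.1 in the knockdown (log2 1.32 ± 0.53 SE, limma adjusted p = 0.0290). Its coding level was 13.6 and 16.4 in the controls and 8.14 and 17.6 in the knockdown (log2 -0.29, limma adjusted p = 0.704). The leader call failed under 7 of 13 alternatives, including edgeR and DESeq2. Zfp948 and Zfp53 both lie on chromosome 17 (21565816 to 21589324 and 21488934 to 21533201), and reads of tandem zinc finger genes can be shared with near copies, so single members of this kind are uncertain.

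On coding sequence the members split. Of 46 members with a mean coding level of at least 10 normalized reads, limma called 5 higher and 4 lower, where 10.6% of 4619 genes tested were higher and 18.7% lower (29.3% in all). Their median log2 change was -0.15 and that of all genes tested -0.16. Among the called members, Zfp35 and Zfp36l1 had control means under 10 and Zfp395 a knockdown mean under 10. These passed the filter through the group where they were higher. With TMM factors the median of all genes became 0.01 and the members' split 9 higher and 4 lower, and with quantile normalization 8 and 4. Of the 4619 genes tested, TMM factors gave 784 higher and 771 lower and quantile normalization 727 and 714, against 488 and 864 without either. In 12 members the knockdown libraries were both higher than the controls and in 17 both lower, against 26.0% and 40.1% of genes tested. Leaving out 1 library left 1 in a group. Most calls of members and of all genes were lost without control replicate 1, and likewise without control replicate 2. Without control replicate 1 the median log2 change was -0.08 in members and -0.11 in all genes. Without control replicate 2 it was -0.16 and -0.21. It was -0.27 and -0.32 without knockdown replicate 1, and -0.10 and -0.01 without knockdown replicate 2. None of the 9 called members changed sign in any alternative.

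**Figure D3:**
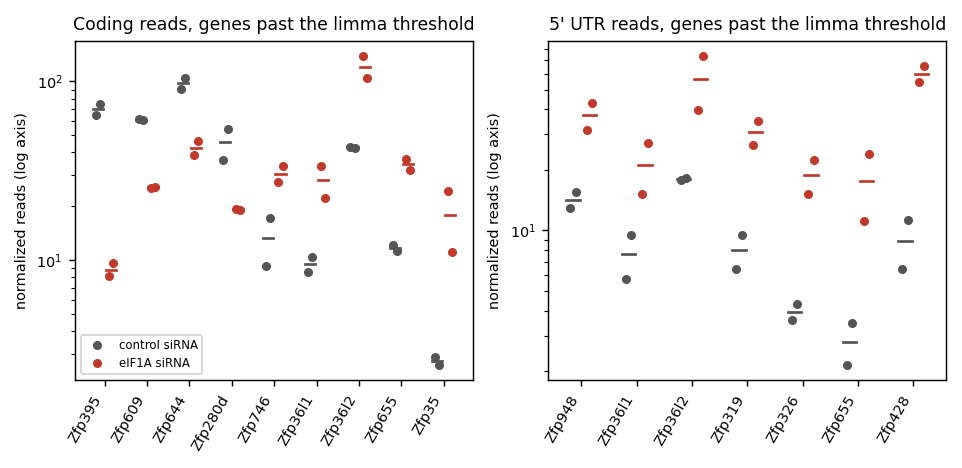
Normalized reads (log axis) in each library (dots) with the mean of 2 libraries per group (lines) for the 9 Zfp genes called on coding reads (left) and the 7 called on leader reads (right), grey for control siRNA and red for eIF1A siRNA. Zfp395 drops from a mean of 69.8 to 8.86 coding reads, and Zfp428 climbs from 8.84 to 60.2 leader reads.

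Of the members that act on RNA or ribosomes, the CCCH pair rose. Zfp36l2 and Zfp36l1 bind AU-rich elements in mRNAs and bring them to decay. Zfp36l2 (chromosome 17, 84183924 to 84187947) had 43.0 and 42.4 normalized coding reads in the controls and 138 and 104 in the knockdown, and 17.9 and 18.2 leader reads against 39.7 and 73.4. No knockdown library overlapped a control in either region. On the log2 scale this was 1.47 ± 0.31 (SE; limma adjusted p = 0.00262) on coding reads and 1.53 ± 0.51 (limma adjusted p = 0.00880) on the leader. Its leader share over summed reads was 29.7% in both groups, but by library it was 29.4% and 30.0% in the controls and 22.3% and 41.4% in the knockdown, 1 below and 1 above both controls.

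Zfp36l1 moved in the same direction on both regions. It had 8.60 and 10.4 normalized coding reads in the controls and 33.6 and 22.3 in the knockdown (log2 1.44 ± 0.45 SE, limma adjusted p = 0.0254). Its leader held 5.73 and 9.51 against 15.3 and 27.1 (log2 1.35 ± 0.59, limma adjusted p = 0.0492), which passed in only 3 of 12 alternatives. Both coding calls of this pair held with edgeR and DESeq2 and failed without either control, that of Zfp36l1 also without knockdown replicate 1. The leader call of Zfp36l2 was lost with quantile normalization and without either control replicate.

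The remaining RNA-related members did not pass on coding reads. Zfp207, a kinetochore and spindle protein, had the highest mean coding level of the members over the controls, with 150.5 and 100.3 normalized reads, and 118 and 75.02 in the knockdown (log2 -0.38, limma adjusted p = 0.401). Its leader level differed widely between knockdown libraries, 11.2 and 49.5 against 25.1 and 32.0 in the controls. Zfp326 had a coding log2 change of 0.39 (limma adjusted p = 0.419). Zfp385a, a p53 cofactor, had 32.2 and 24.2 normalized coding reads against 9.15 and 19.2 (log2 -1.02, limma adjusted p = 0.0987).

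Among 12 transcription factors and chromatin cofactors, 4 fell on coding reads, none rose and 8 did not pass, with a median log2 change of -0.77, where 18.7% of all genes tested were called lower, 10.6% higher and the median was -0.16. This grouping, like the RNA group of 6, was drawn up from known roles after the values had been seen and was not tested. Its counts and median therefore depend on which members were placed in it. Zfp395, a factor known to be induced by hypoxia (chromosome 14, 65358676 to 65398930), had 65.2 and 74.3 normalized coding reads in the controls and 8.14 and 9.58 in the knockdown. The groups were far apart, at -2.84 ± 0.37 on the log2 scale (SE; limma adjusted p = 9.66e-05), and the call held in 12 of 13 alternatives, lost without control replicate 2 (adjusted p = 0.0795). Its leader level was 6.45 and 4.32 in the controls and 5.09 and 6.38 in the knockdown, so the groups overlapped on the leader.

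Zfp644, Zfp609 and Zfp280d fell less far. Zfp644, a partner of the histone methyltransferases Ehmt1 and Ehmt2, had 91.0 and 105 normalized coding reads in the controls and 38.6 and 46.3 in the knockdown (log2 -1.19 ± 0.31 SE, limma adjusted p = 0.00955). Zfp609, a partner of the cohesin loader Nipbl, had 61.6 and 60.5 against 25.4 and 25.5 (log2 -1.23 ± 0.33, limma adjusted p = 0.0111). Replicates of Zfp609 lay close together in both groups. Zfp280d had 36.5 and 54.5 against 19.3 and 19.2 (log2 -1.17 ± 0.37, limma adjusted p = 0.0249). These 3 calls were lost with DESeq2 and without either control replicate, with log2 changes from -1.45 to -0.89 over the alternatives.

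Of the cofactors named here among the 8 that did not pass, Zfp516, Zfp687 and Zfp143 had both knockdown libraries below both controls. The same held for 40.1% of all genes tested. Zfp367 and Zfp219 had coding log2 changes above 0 (0.59 and 0.18). Zfp516 had 58.8 and 57.0 normalized coding reads in the controls and 37.6 and 28.7 in the knockdown (log2 -0.80, limma adjusted p = 0.0786). Zfp687 and Zfp592 both belong to the complex around Zmynd8. Zfp687 had 56.6 and 55.3 against 32.5 and 33.5 (log2 -0.74, limma adjusted p = 0.0936), and Zfp592 had 33.0 and 50.1 against 31.5 and 36.7. The first pair of groups did not overlap, and the second did. Zfp143, an activator of small nuclear RNA and mRNA promoters, had 34.4 and 38.9 against 28.5 and 11.2 (log2 -0.99, limma adjusted p = 0.0954). Zfp384, known from fusions in human leukaemia, had 30.1 and 40.6 against 32.5 and 23.9.

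A group of 10 members was formed by a KRAB box known for the protein or its human counterpart. It was drawn up after the values had been seen, without a search of protein sequences, and was not tested. Members outside it may carry a KRAB box too. Of these 10, 2 rose on coding reads, none fell and 7 of the 9 tested did not pass. Of all genes tested, 10.6% were called higher and 18.7% lower. Zfp655 had 12.2 and 11.2 normalized coding reads in the controls and 36.6 and 31.9 in the knockdown (log2 1.47 ± 0.40 SE, limma adjusted p = 0.0127), so that it rose on both regions. Zfp746, a repressor removed through parkin, had 9.31 and 17.3 against 27.5 and 33.5 (log2 1.19 ± 0.43, limma adjusted p = 0.0481), which passed in 7 of 13 alternatives. Its leader went from 1 and 2 reads to 13 and 13. The mean leader level of Zfp746 fell short of the filter. Without the filter limma called it higher (log2 3.02, limma adjusted p = 0.00104), among 9 of 52 members and 1247 of 4878 genes. Its control leaders lay at or near the lowest value of 1 read, which may stand for none, so the size of this rise has no measured base. Zfp266 had the most leader reads of this group, 26.5 and 44.9 normalized reads in the controls and 33.6 and 31.9 in the knockdown, with overlapping groups. The median leader share of these 10 was 13.1% in the controls and 38.8% in the knockdown, against 8.63% and 22.9% for the transcription factors and cofactors.

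Among the other 24 members, Zfp35 alone was called on coding reads. It had 2.87 and 2.59 normalized reads in the controls and 24.4 and 11.2 in the knockdown (log2 2.24 ± 0.69 SE, limma adjusted p = 0.0241), from 4 and 3 reads in the controls. The call was lost without either control replicate and without knockdown replicate 1 (adjusted p = 0.109). Of these 24, 19 passed the coding filter and 18 did not pass the test, and their median leader share was 29.9% in the controls and 36.6% in the knockdown.

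Changes on the 2 regions could be set side by side in 16 members. Zfp655, Zfp36l2 and Zfp36l1 were called on both regions, and Zfp326, Zfp319 and Zfp948 on the leader only, with ratios that did not pass (limma; the ratio of Zfp326 passed without knockdown replicate 1). Zfp516 and Zfp384 had a log2 change above 0 on the leader (0.92 and 0.59) and below 0 on coding reads (-0.80 and -0.31), and neither region passed. Zfp275 had the reverse order, with 1.14 on coding reads (limma adjusted p = 0.0858) and 0.50 on the leader (limma adjusted p = 0.517).

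**Figure D4:**
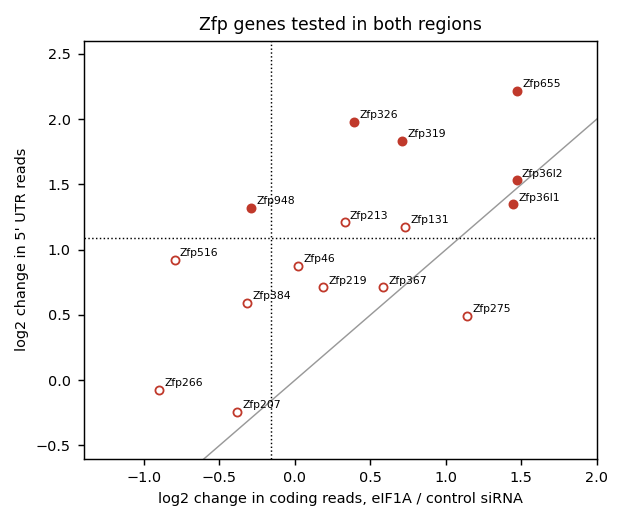
Log2 change in leader (5' UTR) reads (y axis) against log2 change in coding reads (x axis) for the 16 Zfp genes tested in both regions, filled where limma called at least 1 region, with a diagonal of equal change and dotted lines at the medians of all genes. Zfp655 lies at 1.47 and 2.22, and Zfp275 lies below the diagonal at 1.14 and 0.50.

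The partners of KRAB zinc fingers are given beside the members. Of 20 listed corepressor genes tested on coding reads, 7 fell and 1 rose, with a median log2 change of -0.70, where 18.7% of all genes tested were called lower and 10.6% higher. Of 27 genes of other C2H2 families, 5 fell, none rose and 22 did not pass, with a median of -0.34. The leader-to-coding ratio was called higher in 3 of 11 corepressor genes, Chd4 (2.93), Kdm1a (2.88) and Rbbp4 (2.84), and in 1 of 6 genes of the other families, Egr1 (2.19), beside 0 of 16 Zfp members and 19.4% of all genes tested. The difference between these lists was not tested.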

How the data were processed

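Per the submitters' processing notes, cutadapt, Bowtie, TopHat2, HTSeq and DESeq2 were used with build mm10; roles and versions are not given in the sources used here. The authors deposited 1 signal value per gene, library and region (5' UTR, coding sequence), with regions and libraries per the file headers; the table's own title calls the values normalized. All values (100%) were whole multiples of 1 read within 0.001 reads, and division by the worth of 1 read gave whole reads (1 read was 0.717, 0.864, 1.02 and 1.60 in control 1, control 2, knockdown 1 and knockdown 2). The lowest value was 1 read, which may stand for 0. Every gene had at least 26 reads in 1 library, so totals are those of listed genes. Replicates differed by more than sampling noise (chi-square per degree of freedom 2.66 and 3.76).

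Testing used log2(normalized reads + 1) and limma 3.58.1 in R 4.3.3 (empirical Bayes with trend, Benjamini-Hochberg over all genes tested, threshold 0.05), for genes with a mean of at least 10. This scale understates changes of low genes. For leaders and the ratio every gene got the trend's variance. With 2 against 2, an exact permutation test cannot go below p = 0.333. Alternatives were pseudocounts, filters, scalings, the replicate number, left-out libraries, edgeR 4.0.16 and DESeq2 1.42.0. The tests were checked on simulated reads with known changes. Each test missed most of the smaller changes, and the ratio test missed most of the larger ones too.

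The members, lists and tests were chosen with earlier results of these data known. Genes were named by rule: members called in any measure, the 8 highest coding levels, the 8 highest and 4 lowest control leader shares (at least 50 reads), the 6 largest rises and falls in share, and a list of well-known factors, of which those not mentioned were not analysed here. A few further members are given as values. All 52 members matched RefSeq symbols (GRCm38.p6); protein lengths were not used here, so levels were not compared per length, and the protein classes planned from sequence were replaced by known roles.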

Additional observations from a re-analysis of the deposited data

How the results depend on the processing

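Directions of the called members were the same in every alternative run, while the number of calls moved. On coding reads (5 higher and 4 lower), members higher were 2 of 24 with a mean filter of 20, where 432 of 3667 genes were higher. They were 9 with TMM factors, 8 with quantile normalization and 9 with edgeR. In these settings 784, 727 and 900 of 4619 genes were higher. Members lower were 1 with DESeq2, where 498 of 4619 genes were lower. Leaving out 1 library at a time, which leaves 1 in a group, moved both counts up in some runs and down in others. On leaders (7 higher and 0 lower), members higher were 3 with a mean filter of 20 and 1 with quantile normalization, which called 3 lower, and leaving out 1 library gave 0 to 10 higher and 0 to 1 lower. The mean filter of 20 left only 7 members tested on leaders, against 21 in the main setting. There 3 of 7 members and 565 of 1159 genes were higher, against 7 of 21 and 924 of 2101 in the main setting. Quantile normalization called 388 of 2101 genes higher and 385 lower. In each run with 1 library left out, leader calls of all genes, higher, moved the same way as those of members. The ratio (0 higher) gave 4 of 52 members without a filter, where 617 of 4878 genes were higher, and some with 1 library left out. Same-numbered libraries deviated together with a correlation of 0.261, but with only 2 pairs they share no more than a number. Limma with the replicate block called 8 higher and 9 lower on coding reads, against 746 and 1175 of 4619 genes. For the ratio it called 3 of 16 members higher (Zfp326, Zfp516 and Zfp948), against 841 of 1907 genes. The median control share of all genes was 6.67% with 1 read subtracted from every value, against 8.57%. With 1 library left out, that of members ranged from 14.3% to 20.7%. These medians cover the 27 to 46 members that kept at least 20 reads in each group, so the set of genes changed too. The cause of these moves was not tested. Members had a median of 13 leader reads over both controls, which limits single shares.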
